A study of Mus musculus with 9 samples.

Results

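Fatty acid oxidation in the liver was described here through 40 genes: the nuclear receptor PPAR-alpha and its coactivator, the enzymes and carriers that bring fatty acids into mitochondria and shorten them there, the peroxisomal and omega-oxidation branches, an enzyme of ketone body formation, and classical targets of the receptor. The genes were picked by symbol among the 24008 genes of the count table. All 40 were listed, and all 40 were among the 14379 genes that passed the filter on low counts. RNA was sequenced from bulk liver of 9 mice, 3 per group and 1 library per mouse. Flox was the control group, which the labels call WT, F4MKO mice carried a knockout of interferon regulatory factor 4 (IRF4) in skeletal muscle, and F4MKO+FSTL1 mice carried the same knockout and overexpressed the muscle-secreted protein follistatin-like 1 (FSTL1). All 3 groups ate the high-fat, high-carbohydrate diet with added cholesterol that induces non-alcoholic steatohepatitis (NASH), and drank a fructose-glucose solution. The time on this diet before the virus is stated differently in different parts of the methods. According to the methods, mice were on a C57BL/6 background, Myl-Cre deleted the floxed Irf4 alleles in muscle, and FSTL1 came from an adeno-associated virus with a muscle creatine kinase promoter injected into the gastrocnemius. The methods give the Flox and F4MKO mice a GFP virus instead, whereas the labels name no vector for them. The age of these mice was not stated in the labels.

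PPAR-alpha is a ligand-activated receptor of hepatocytes that senses fatty acids, pairs with the retinoid X receptor and binds DNA elements made of 2 direct repeats. During fasting or lipid overload it switches on fatty acid uptake, activation and oxidation. Long-chain fatty acids are coupled to coenzyme A, carried into mitochondria as carnitine esters and shortened by a repeating cycle of dehydrogenation, hydration, dehydrogenation and thiolysis. Very long chains are first shortened in peroxisomes, and a small share is oxidised from the far end of the chain by cytochromes of the CYP4A family.

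Library totals ranged from 20656976 to 24322984 counts. The 40 genes together held 1.53% to 2.06% of the counts of a library. F4MKO replicate 1 stood apart before any comparison was made. Its scaling factor was 1.17, the highest of the 9, and its levels of the 40 genes were a median of 0.39 log2 units below each gene's mean over all libraries, while the medians of the other 8 libraries lay between -0.03 and 0.17. Liver identity was checked with 7 hepatocyte genes, whose summed level was 77644 CPM in that library and 95833 to 112086 CPM in the others. CPM are read counts relative to the library total times its scaling factor, so the high factor lowers every CPM value of F4MKO replicate 1. The muscle markers Ckm, Acta1 and Myh4 were at or near 0 in every library. Xist, a transcript of female cells, had 0 to 3 counts per library. The Y-linked gene Ddx3y was at 37.7 to 50.1 CPM, which marks all 9 livers as male. Irf4 was read at 4.24 to 6.06 CPM in 8 livers and at 0.467 CPM in F4MKO+FSTL1 replicate 1, and since the deletion was made in muscle, liver counts do not check it. Hepatic Fstl1 was at 6.15, 7.62 and 6.52 CPM in Flox, 16.1, 9.80 and 11.3 CPM in F4MKO and 5.33, 3.22 and 4.33 CPM in F4MKO+FSTL1. Its log2 fold change was -1.53 (adjusted p = 0.0017 by edgeR) in F4MKO+FSTL1 against F4MKO. In F4MKO against Flox it was 0.88 (adjusted p = 0.0864 by edgeR). The paper, by quantitative PCR, reports no change of liver Fstl1 mRNA after the virus. The reason for the difference was not tested.

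The DNA element bound by PPAR-alpha, called DR1, was searched in the promoters, because it is the sequence through which the receptor reaches its targets. RefSeq (GRCm38.p6) gave promoters of 250 bases before and 50 bases after a start for 31 of the 40 genes. The genes left out of the search were all Cyp4a genes, Acaa2, Decr1, Hsd17b4, Abcd2 and Vnn1. The search used 2 copies of AGGTCA separated by 1 base, on both strands, with at most 2 mismatches over the 12 fixed bases. At least 1 promoter held such a match in 5 of the 31 genes (16.1%), compared with 4.40% of the 27025 genes in the promoter table. With at most 1 mismatch, only Fabp1 matched among the 31 (3.23%), compared with 0.644% of all genes. A match is a description of letters and not evidence of binding. The 13 bases of each match, read along the strand that carries the repeat, are shown for comparison with the consensus:
Fabp1: AGGCCATAGGTCA
Cd36: AAGTCAGAGGCCA
Etfa: AGGGCAAAGGTAA
Acot4: CGGCCAAAGGTCA
Slc25a20: AGGTGAAAGGTCG

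Fabp1 and Cd36 both encode fatty acid handling proteins with a DR1 match, and since 1 rose and the other fell in F4MKO+FSTL1 against F4MKO, their upstream sequences are given in full. The Fabp1 sequence lies at chr6:71199629-71199878 on the plus strand, directly before the annotated gene at chr6:71199879-71205034, and its element begins 67 bases before the start. The Cd36 sequence lies at chr5:17835897-17836146 on the minus strand, before the RefSeq start used here but inside the full annotated span of the gene (chr5:17781690-17888959), and its element begins 63 bases before that start. Capitals mark the element, which in both cases reads along the opposite strand:
Fabp1: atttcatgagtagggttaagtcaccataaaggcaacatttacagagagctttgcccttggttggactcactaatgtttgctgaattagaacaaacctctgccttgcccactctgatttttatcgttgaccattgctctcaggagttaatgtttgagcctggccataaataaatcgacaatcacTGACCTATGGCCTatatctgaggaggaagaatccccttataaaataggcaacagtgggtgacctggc
Cd36: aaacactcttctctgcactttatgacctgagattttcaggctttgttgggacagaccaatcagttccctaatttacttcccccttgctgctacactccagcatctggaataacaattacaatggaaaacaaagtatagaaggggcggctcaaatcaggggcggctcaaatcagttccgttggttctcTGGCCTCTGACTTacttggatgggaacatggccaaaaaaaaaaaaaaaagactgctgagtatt

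A gene was called when the edgeR quasi-likelihood test gave a Benjamini-Hochberg adjusted p below 0.05 over all genes tested and the fold change was above 1.5. The F4MKO libraries enter both main comparisons, so the values of F4MKO against Flox and of F4MKO+FSTL1 against F4MKO are given side by side and not related to each other. In F4MKO against Flox, which asks what the loss of muscle IRF4 does to the liver, 0 of the 40 genes were called higher (0.202% of all tested genes were) and 0 were called lower (0.0695% were). Their median log2 fold change was -0.19, compared with -0.003 over all tested genes, with 31 genes lower and 9 higher, and 7 had an unadjusted p below 0.05, as had 16.9% of all tested genes. The groups did not overlap for 11 of the 40 genes (27.5%, with 21.8% over all tested genes), 8 of them lower and 3 higher in F4MKO. Without F4MKO replicate 1, the median was -0.10 and the split 25 lower to 15 higher. In the same comparison all 7 hepatocyte markers were lower in F4MKO (median log2 fold change -0.28, none called), and all 5 cholangiocyte markers were higher, with Epcam and Spp1 called and a median of 1.11. Without F4MKO replicate 1, 0 genes were called in either direction over all tested genes, Epcam and Spp1 included. All 8 male-predominant liver genes were lower without overlap (median -1.17, none called). Of 8 female-predominant liver genes 3 were tested, and all 3 were higher (median 2.62, none called), with overlapping groups. The part of these marker groups in the result was not tested.

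In F4MKO+FSTL1 against F4MKO, which asks what FSTL1 does on top of the knockout, 3 genes rose, Acsl1, Acaa1a and Fabp1, where 3.21% of all tested genes were called higher. Another 4 fell, Abcd2, Cd36, Pdk4 and Acot2, where 11.2% were called lower. The median log2 fold change was 0.28, compared with 0.01 over all tested genes, with 31 genes higher and 9 lower. F4MKO+FSTL1 and F4MKO livers did not overlap for 24 genes of the 40, where 39.0% of all tested genes did not, 20 of them higher and 4 lower. Without F4MKO replicate 1, the median was 0.20. When the test itself was made against a fold of 1.5 (glmTreat in edgeR), only Abcd2 and Pdk4 were called. Against Flox, 0 genes of F4MKO+FSTL1 livers were called higher (0% of all tested genes) and 0 were called lower (0.00695%). There the median was 0.10, 7 genes had an unadjusted p below 0.05 (13.4% of all tested genes had), the smallest adjusted p by edgeR was 0.128, and 9 genes did not overlap (22.5%, with 18.2% over all tested genes).

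**Figure D1:**
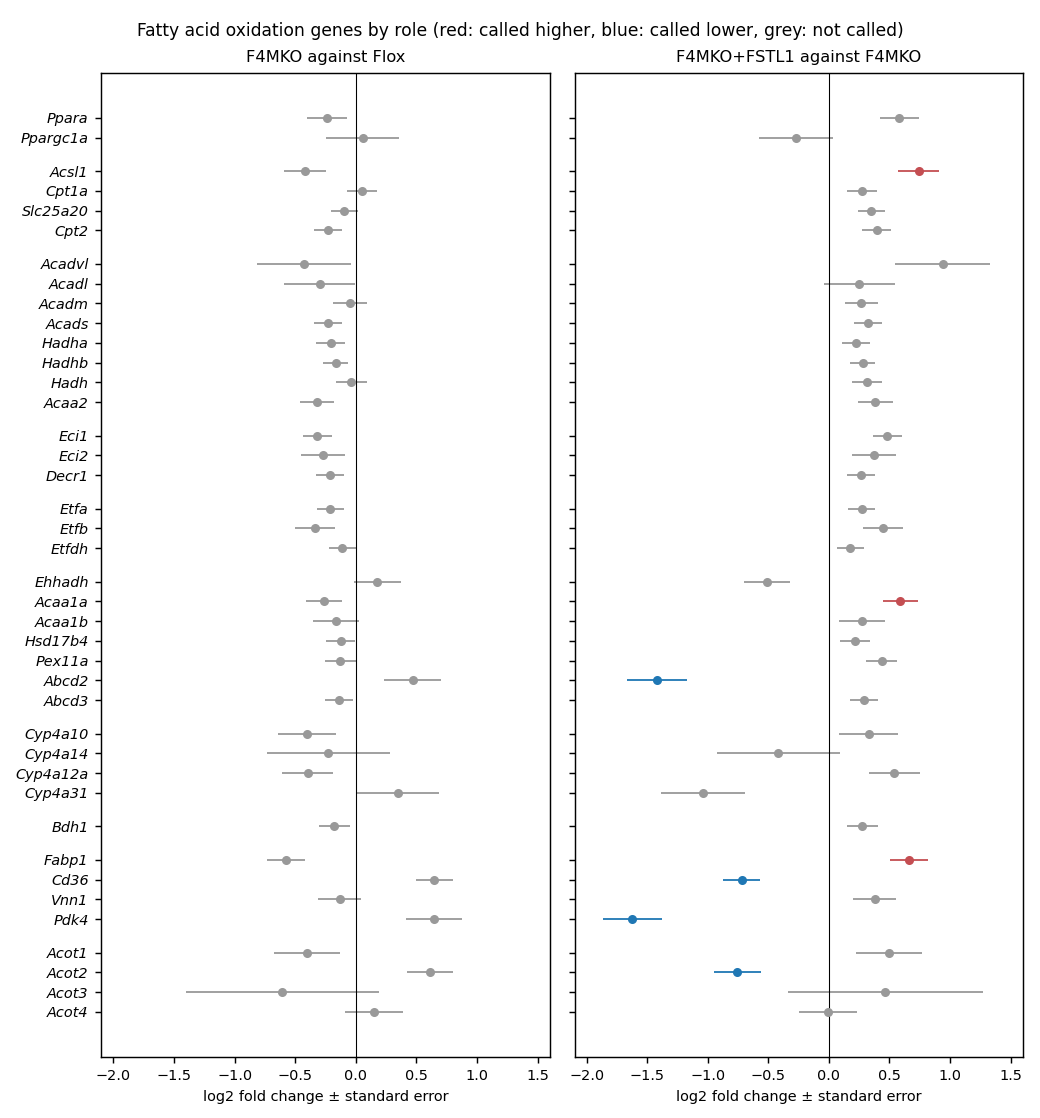
Log2 fold change ± standard error of the 40 genes (vertical axis, grouped by role) in F4MKO against Flox and in F4MKO+FSTL1 against F4MKO (horizontal axes, log2 units, 3 mice per group). No gene is coloured in the left panel, and 3 higher (red) and 4 lower (blue) genes are coloured in the right panel, where 31 of 40 points lie to the right of 0.

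Markers of some other cell types also moved in F4MKO+FSTL1 against F4MKO, where 3.21% of all tested genes were called higher and 11.2% lower. Of 6 endothelial markers 0 were called (median log2 fold change 0.03, 4 higher and 2 lower). Of 6 tested lymphocyte markers 0 were called, and all 6 were lower (median -0.45). Of 8 macrophage markers 6 were called lower in F4MKO+FSTL1 than in F4MKO, with a summed level of 317 to 486 CPM in F4MKO+FSTL1, 688 to 729 CPM in F4MKO and 523 to 854 CPM in Flox. Of 8 stellate and myofibroblast markers 4 were called lower, with sums of 121 to 167 CPM, 260 to 353 CPM and 178 to 209 CPM in the same order. Of 5 cholangiocyte markers 4 were called lower, with sums of 36.1 to 53.8 CPM, 160 to 430 CPM and 50.7 to 88.9 CPM, the highest in F4MKO replicate 1. Of 7 hepatocyte markers 2 were called higher, Apoa2 and Serpina1a, and the median log2 fold change of the 7 was 0.33. The adipocyte markers Adipoq, Plin1 and Lep were at or near 0, while Cfd was at 65.4, 42.4 and 4.65 CPM in F4MKO+FSTL1 and at most 3.57 CPM elsewhere. In bulk liver, fewer cells of a type and less RNA per cell cannot be told apart, and the part of composition in the results on the 40 genes was not tested.

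The regulators were considered first. Ppara, the receptor itself, was at 267, 278 and 234 CPM in Flox, 195, 259 and 208 CPM in F4MKO and 372, 366 and 252 CPM in F4MKO+FSTL1. The third F4MKO+FSTL1 liver lay inside the F4MKO range and the other two lay above every other liver. The log2 fold change was 0.58 (SE 0.16, adjusted p = 0.0275 by edgeR), a fold of 1.495 that missed the required 1.5, and it was -0.24 (SE 0.16, adjusted p = 0.489 by edgeR) in F4MKO against Flox. Without F4MKO replicate 2 it was 0.71 and without F4MKO+FSTL1 replicate 3 it was 0.75, and Ppara was called in both cases, as it was by DESeq2 at 0.60. It also missed the adjusted p without F4MKO replicate 1 (0.50), F4MKO replicate 3 (0.54), F4MKO+FSTL1 replicate 1 (0.49) or F4MKO+FSTL1 replicate 2 (0.50), with adjusted p-values of 0.0683 to 0.108 by edgeR. Ppargc1a, the coactivator PGC-1α, had the lowest level per length of the 40 genes, 1.36 CPM per kb of transcript. It was at 5.26, 13.5 and 8.34 CPM in Flox, 7.78, 11.4 and 9.10 CPM in F4MKO and 6.87, 6.06 and 10.6 CPM in F4MKO+FSTL1, with all groups overlapping.

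Ppara is known to follow the circadian clock in liver. Of 14 clock genes 5 were called higher in F4MKO+FSTL1 than in F4MKO, among them Dbp (log2 fold change 1.28) and Per3 (1.12), and 2 were called lower, Arntl (-1.71) and Npas2 (-2.05). Collection times are not in the labels, and the part of the clock in the levels of the 40 genes was not tested.

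Activation and mitochondrial entry came next. Acsl1, the main hepatic enzyme that couples long-chain fatty acids to coenzyme A, was at 1303, 973 and 1082 CPM in Flox, 665, 948 and 898 CPM in F4MKO and 1299, 1644 and 1257 CPM in F4MKO+FSTL1. Every F4MKO liver was below every Flox liver and every F4MKO+FSTL1 liver. Acsl1 rose 1.67-fold in F4MKO+FSTL1 against F4MKO (log2 0.74, SE 0.17, adjusted p = 0.0115 by edgeR), and its value was -0.42 (SE 0.17, adjusted p = 0.247 by edgeR) in F4MKO against Flox. Leaving out F4MKO+FSTL1 replicate 2 gave 0.61 with an adjusted p of 0.0562 by edgeR.

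Cpt1a, the carnitine palmitoyltransferase that sets the rate of mitochondrial entry, was at 528, 582 and 540 CPM in Flox, 511, 584 and 612 CPM in F4MKO and 792, 657 and 614 CPM in F4MKO+FSTL1. F4MKO+FSTL1 livers lay above all others, the closest pair being 614 and 612 CPM, and the log2 fold change was 0.27 (SE 0.13, adjusted p = 0.144 by edgeR). The carnitine-acylcarnitine carrier Slc25a20 and the inner-membrane transferase Cpt2 passed the adjusted p but not the fold limit, at log2 0.35 and 0.39 (adjusted p = 0.0468 and 0.0347 by edgeR). All 4 genes of this step were higher in F4MKO+FSTL1 than in F4MKO without overlap.

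**Figure D2:**
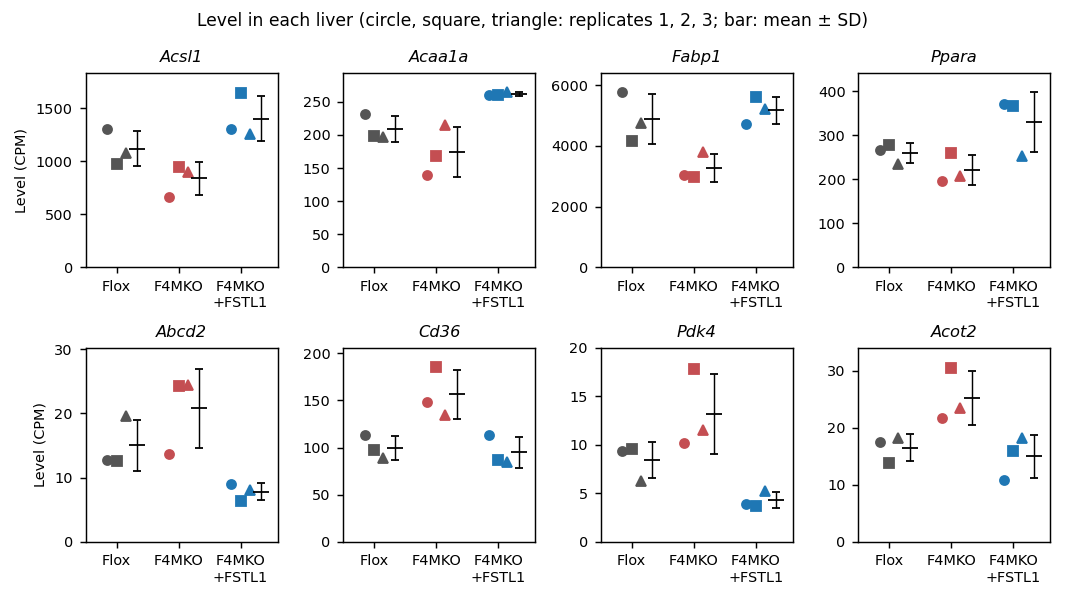
Level (CPM, vertical axes from 0) in each of the 9 livers of the 7 genes called in F4MKO+FSTL1 against F4MKO, and of Ppara, with symbols for replicates 1 to 3 and bars for mean ± SD (n = 3). Every F4MKO+FSTL1 liver lies above every F4MKO liver for Acsl1, Acaa1a and Fabp1 and below every F4MKO liver for Abcd2, Cd36, Pdk4 and Acot2.

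The mitochondrial spiral comprised 8 genes, namely the acyl-CoA dehydrogenases for very long, long, medium and short chains (Acadvl, Acadl, Acadm, Acads), both subunits of the trifunctional protein (Hadha, Hadhb), the short-chain hydroxyacyl-CoA dehydrogenase Hadh and the thiolase Acaa2. None of the 8 was called in any comparison by edgeR, and their smallest adjusted p was 0.281 in F4MKO against Flox, 0.0718 in F4MKO+FSTL1 against F4MKO and 0.361 in F4MKO+FSTL1 against Flox. At an unadjusted p below 0.05 there were 1, 5 and 1 genes, where 16.9%, 35.3% and 13.4% of all tested genes were. All 8 had lower means in F4MKO than in Flox (log2 fold changes of -0.43 to -0.04, median -0.22), and all 8 had higher ones in F4MKO+FSTL1 than in F4MKO (0.22 to 0.94, median 0.30). Without F4MKO replicate 1, Acadm (0.10) and Hadh (0.09) were higher in F4MKO than in Flox and the other 6 were lower (median of the 8, -0.11), and the 8 differences of F4MKO+FSTL1 from F4MKO were 0.06 to 0.68 (median 0.20).

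Acaa2 had the highest level per length of the spiral, 504 CPM per kb. It was at 838, 780 and 802 CPM in Flox, 516, 659 and 762 CPM in F4MKO and 777, 849 and 901 CPM in F4MKO+FSTL1, so that the F4MKO livers were the lowest 3 of the 9. Its log2 fold change was -0.32 (SE 0.14, adjusted p = 0.281 by edgeR) in F4MKO against Flox and 0.38 (SE 0.14, adjusted p = 0.0752 by edgeR) in F4MKO+FSTL1 against F4MKO. Acadvl had the largest difference of the spiral, 0.94 (SE 0.39, adjusted p = 0.110 by edgeR), but also a wide spread. Its levels were 126, 60.2 and 76.4 CPM in Flox, 40.5, 78.0 and 77.2 CPM in F4MKO and 132, 59.1 and 184 CPM in F4MKO+FSTL1, and every pair of groups overlapped. Without F4MKO+FSTL1 replicate 2 it was 1.28 with an adjusted p of 0.0357 by edgeR, and without F4MKO+FSTL1 replicate 3 it was 0.56 with an adjusted p of 0.342.

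The auxiliary enzymes, which prepare unsaturated fatty acids for the spiral (Eci1, Eci2, Decr1), and the electron transfer flavoproteins, which pass electrons to the respiratory chain (Etfa, Etfb, Etfdh), held 6 genes, and none was called. Their log2 fold changes were -0.34 to -0.11 in F4MKO against Flox (-0.22 to -0.03 without F4MKO replicate 1) and 0.18 to 0.48 in F4MKO+FSTL1 against F4MKO (0.10 to 0.39 without it). Eci1 was at 197, 171 and 178 CPM in Flox, 127, 142 and 168 CPM in F4MKO and 191, 210 and 210 CPM in F4MKO+FSTL1, with F4MKO below both other groups. It passed the adjusted p but not the fold limit (log2 0.48, SE 0.12, adjusted p = 0.0158 by edgeR), and its values without 1 library ran from 0.39 to 0.60, the highest of which, without F4MKO replicate 3, was called. Etfb was at 309, 251 and 292 CPM in Flox, 181, 223 and 271 CPM in F4MKO and 252, 307 and 360 CPM in F4MKO+FSTL1 (0.45, SE 0.17, adjusted p = 0.0800 by edgeR). Its transcript shares 67.3% of its 50-base windows with the gene model Gm45233, so its counts depend on how shared reads were assigned, and its values without 1 library ran from 0.31 to 0.60, the highest of which, without F4MKO replicate 3, was called.

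**Figure D3:**
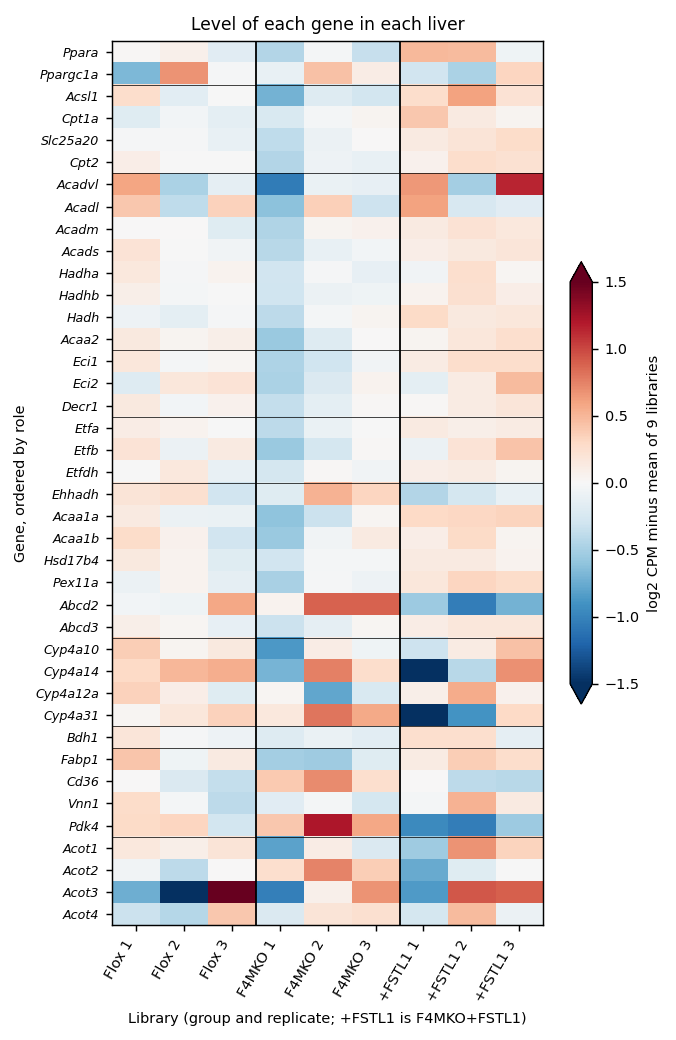
Log2 CPM of each of the 40 genes (rows, ordered by role) in each of the 9 livers (columns) minus the gene's mean over the 9 livers, with red above and blue below the mean and the colour scale cut at ±1.5. The column of F4MKO replicate 1 is blue for most rows, with a median of -0.39, and Abcd2, Cd36 and Pdk4 are blue in most F4MKO+FSTL1 columns where other rows are red.

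The peroxisomal genes did not move as 1 group. Acaa1a, a peroxisomal thiolase that ends each round of chain shortening, was at 232, 199 and 196 CPM in Flox, 139, 169 and 215 CPM in F4MKO and 260, 260 and 265 CPM in F4MKO+FSTL1. All 3 F4MKO+FSTL1 livers exceeded all 6 others. Acaa1a rose 1.504-fold in F4MKO+FSTL1 against F4MKO (log2 0.59, SE 0.15, adjusted p = 0.0160 by edgeR), just past the limit, and was not called with only the 6 libraries compared (0.58), without F4MKO replicate 1 (0.45), without F4MKO replicate 2 (0.56) or without F4MKO+FSTL1 replicate 2 (0.60). Acaa1b, its near-identical paralog on chromosome 9, had the highest level per length of the peroxisomal genes, 1073 CPM per kb, with 2167, 1862 and 1462 CPM in Flox, 1212, 1725 and 1965 CPM in F4MKO and 1911, 2175 and 1835 CPM in F4MKO+FSTL1. All groups overlapped for Acaa1b (0.27, SE 0.19, adjusted p = 0.337 by edgeR). The transcripts share 35.5% of the windows of Acaa1b and 15.6% of those of Acaa1a, so a split of reads between the paralogs is uncertain.

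Abcd2, a peroxisomal membrane transporter of very long chain acyl-CoA, fell 2.67-fold in F4MKO+FSTL1 against F4MKO. It was at 12.7, 12.6 and 19.7 CPM in Flox, 13.7, 24.3 and 24.5 CPM in F4MKO and 8.97, 6.39 and 7.99 CPM in F4MKO+FSTL1, whose livers were the lowest 3 of the 9. The log2 fold change was -1.42 (SE 0.25, adjusted p = 0.00349 by edgeR) against F4MKO and -0.95 (SE 0.25, adjusted p = 0.147 by edgeR) against Flox. Its paralog Abcd3 was at 0.29 (adjusted p = 0.0952 by edgeR) in F4MKO+FSTL1 against F4MKO. Of the remaining genes, chosen for mention after their values were seen, the bifunctional enzyme Ehhadh was at -0.51 (adjusted p = 0.0793 by edgeR) and the peroxisome proliferation factor Pex11a at 0.44 (adjusted p = 0.0327 by edgeR, below the fold limit).

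Omega oxidation rested on 4 Cyp4a genes in a cluster on chromosome 4, and none was called in the 3 comparisons. Cyp4a14, a classical target that PPAR-alpha agonists induce strongly, had the second largest spread within groups of the 40 genes, with a pooled SD of 0.877 log2 units, compared with a median of 0.226 over the 40 and 0.196 over all tested genes. It was at 1665, 1925 and 1979 CPM in Flox, 840, 2286 and 1634 CPM in F4MKO and 353, 1018 and 2191 CPM in F4MKO+FSTL1. The lowest liver of the 9 and a liver near the top were both F4MKO+FSTL1, and the log2 fold change of -0.42 (SE 0.51, adjusted p = 0.594 by edgeR) was within that spread.

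Cyp4a31 was at 24.6, 27.1 and 30.6 CPM in Flox, 26.9, 41.9 and 35.8 CPM in F4MKO and 8.50, 12.9 and 29.7 CPM in F4MKO+FSTL1, where the third liver again stood with the other groups. The log2 fold change of F4MKO+FSTL1 against F4MKO was -1.04 (SE 0.35, adjusted p = 0.0548 by edgeR), and without F4MKO+FSTL1 replicate 3 it was -1.70 (adjusted p = 0.00163 by edgeR), with -0.71 as the smallest difference without another library. Cyp4a10 was at 0.33 and Cyp4a12a at 0.54 (adjusted p = 0.362 and 0.0919 by edgeR) in the same comparison. Cyp4a12a is known as a male-predominant gene, and 8 other male-predominant liver genes were all higher in F4MKO+FSTL1 than in F4MKO, 4 of them called, with a median log2 fold change of 1.40. In F4MKO against Flox all 8 were lower (median -1.17) and Cyp4a12a was at -0.40 (adjusted p = 0.369 by edgeR), and against Flox the 8 in F4MKO+FSTL1 had a median of 0.30, with 5 higher and 3 lower. The 3 tested female-predominant genes were all lower in F4MKO+FSTL1 than in F4MKO, with Cyp2a4 called (-3.61). The part of these sex-biased genes in the Cyp4a12a values was not tested. Because 48.9% of the Cyp4a12a windows, 30.5% of those of Cyp4a10 and 21.7% of those of Cyp4a31 occur in other transcripts, mostly of the same family, values of single family members are uncertain.

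**Figure D4:**
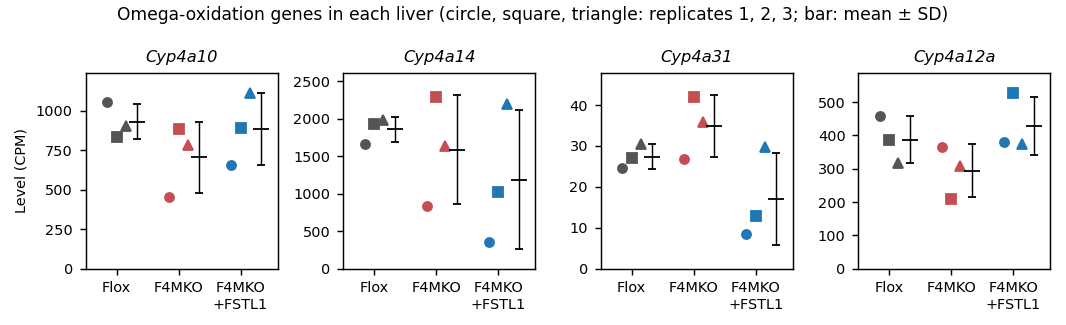
Level (CPM, vertical axes from 0) of the 4 Cyp4a genes in each of the 9 livers, with symbols for replicates 1 to 3 and bars for mean ± SD (n = 3). F4MKO+FSTL1 replicates spread from 353 to 2191 CPM for Cyp4a14 and from 8.50 to 29.7 CPM for Cyp4a31, and overlap with F4MKO in both.

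Binding, uptake and fuel choice held 3 of the 7 called genes. Fabp1, the liver fatty acid binding protein that carries fatty acids through the cytosol, had the highest level per length of all 40 genes, 8043 CPM per kb. It was at 5772, 4160 and 4741 CPM in Flox, 3038, 2985 and 3807 CPM in F4MKO and 4711, 5598 and 5216 CPM in F4MKO+FSTL1, and all F4MKO livers were below all others. Fabp1 rose 1.58-fold in F4MKO+FSTL1 against F4MKO (log2 0.66, SE 0.16, adjusted p = 0.0142 by edgeR), and was at -0.58 (SE 0.16, adjusted p = 0.116 by edgeR) in F4MKO against Flox. It was not called without F4MKO replicate 2 (0.59, adjusted p = 0.0507 by edgeR) or without F4MKO+FSTL1 replicate 2 (0.60, adjusted p = 0.0616 by edgeR).

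Cd36, a fatty acid translocase that macrophages and endothelial cells also make, had the opposite pattern. It was at 113, 97.3 and 88.6 CPM in Flox, 148, 186 and 135 CPM in F4MKO and 113, 86.5 and 84.7 CPM in F4MKO+FSTL1, with all F4MKO livers above all others. Cd36 fell 1.65-fold in F4MKO+FSTL1 against F4MKO (log2 -0.72, SE 0.15, adjusted p = 0.00840 by edgeR). In F4MKO against Flox it was at 0.65 (SE 0.15), and its adjusted p of 0.0834 by edgeR was the smallest of the 40 genes there. Without F4MKO replicate 2 the fall was -0.58, below the fold limit, with an adjusted p of 0.0310 by edgeR. The 8 macrophage markers had a median log2 fold change of -0.99 in F4MKO+FSTL1 against F4MKO (7 lower). In F4MKO against Flox their median was 0.11 (6 higher, 2 lower, none called). There Itgam was at 0.76, Cd68 at 0.47, Lyz2 at 0.42, Csf1r at 0.14, Cd5l at 0.08 and Adgre1 at 0.05. Clec4f was at -0.36 and Marco at -1.41, the latter without overlap. The 6 endothelial markers had medians of 0.03 and -0.16 in the same 2 comparisons, with none called. The part of either cell type in the Cd36 values was not tested.

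Pdk4, a kinase that blocks glucose oxidation by inactivating pyruvate dehydrogenase, fell 3.08-fold, the largest change of the 40 genes in F4MKO+FSTL1 against F4MKO. It was at 9.36, 9.59 and 6.30 CPM in Flox, 10.2, 17.8 and 11.5 CPM in F4MKO and 3.92, 3.70 and 5.22 CPM in F4MKO+FSTL1, so the 3 groups were fully separated with F4MKO at the top. The log2 fold change was -1.62 (SE 0.24, adjusted p = 0.00189 by edgeR) against F4MKO, -0.98 (SE 0.25, adjusted p = 0.128 by edgeR) against Flox, and 0.64 (SE 0.23, adjusted p = 0.197 by edgeR) for F4MKO against Flox. Vnn1, the pantetheinase, was at 0.38 (adjusted p = 0.152 by edgeR) in F4MKO+FSTL1 against F4MKO.

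The acyl-CoA thioesterases, which release free fatty acids from coenzyme A, lie in a cluster on chromosome 12. Acot2, the mitochondrial form, was at 17.6, 13.8 and 18.1 CPM in Flox, 21.7, 30.6 and 23.4 CPM in F4MKO and 10.7, 16.0 and 18.1 CPM in F4MKO+FSTL1. All F4MKO livers were above all others, and Acot2 fell 1.69-fold in F4MKO+FSTL1 (log2 -0.75, SE 0.19, adjusted p = 0.0191 by edgeR). The call was lost without F4MKO replicate 2 (-0.60), without F4MKO+FSTL1 replicate 1 (-0.56) and without F4MKO+FSTL1 replicate 2 (-0.80), with adjusted p-values of 0.0601, 0.0525 and 0.0522 by edgeR. Acot1, the cytosolic form, was at 99.2, 94.5 and 102 CPM in Flox, 51.1, 96.2 and 76.4 CPM in F4MKO and 61.3, 142 and 112 CPM in F4MKO+FSTL1, with overlapping groups (0.50, SE 0.27, adjusted p = 0.215 by edgeR). Its values without 1 library ran from 0.22 to 0.77, the highest of which, without F4MKO+FSTL1 replicate 1, was called. Acot1 and Acot2 share 17.6% and 24.5% of their windows with each other, so their values are uncertain. Acot3, mentioned after its values were seen, had the largest spread of the 40 genes, with a pooled SD of 1.38 log2 units.

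Ketogenesis was represented by Bdh1, which interconverts acetoacetate and beta-hydroxybutyrate. It was at 364, 315 and 303 CPM in Flox, 280, 300 and 288 CPM in F4MKO and 380, 381 and 290 CPM in F4MKO+FSTL1. F4MKO was below Flox without overlap, but the log2 fold changes of -0.18 (SE 0.13, adjusted p = 0.508 by edgeR) and 0.28 (SE 0.13, adjusted p = 0.144 by edgeR, against F4MKO) were not called.

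A wider list of 122 further genes of the same pathways was counted beside the 40, of which 120 were listed in the table and 113 were tested. None was called in F4MKO against Flox or in F4MKO+FSTL1 against Flox by edgeR, where 29 and 18 had an unadjusted p below 0.05, next to 16.9% and 13.4% of all tested genes. For F4MKO+FSTL1 against F4MKO 10 were called higher and 5 lower, where 3.21% and 11.2% of all tested genes were. The same shares apply to the calls of the single lists below. Of the 113 genes 83 were higher, with a median log2 fold change of 0.23. Without F4MKO replicate 1 the calls were 8 in all, and without F4MKO replicate 3 they were 22.

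Peroxisomal oxidation and biogenesis was the most uniform of these lists in F4MKO+FSTL1 against F4MKO, with 30 of 32 tested genes higher (median 0.32) and 3 called, all higher. The largest of the 3 was Slc27a2, the very long chain acyl-CoA synthetase (log2 0.75, SE 0.15, adjusted p = 0.00552 by edgeR).

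The 7 ketone body genes split, with Bdh2, a cytosolic short-chain dehydrogenase, higher (1.27, adjusted p = 0.00669 by edgeR) and Oxct1, which uses ketone bodies outside the liver, lower (-1.26, adjusted p = 0.00182 by edgeR).

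Among 24 tested further PPAR-alpha targets 3 were called higher and 2 lower in F4MKO+FSTL1 against F4MKO. The largest change was that of Aqp7, a glycerol channel at under 2 CPM in every liver (-2.58, SE 0.58, adjusted p = 0.0102 by edgeR). Fgf21, a fasting hormone and textbook PPAR-alpha target, was at 18.5, 12.6 and 10.3 CPM in Flox, 21.5, 22.0 and 8.46 CPM in F4MKO and 13.6, 24.7 and 6.69 CPM in F4MKO+FSTL1, with full overlap (-0.21, SE 0.43, adjusted p = 0.769 by edgeR). Angptl4, another target, had 0 to 4 counts per library and was not tested. Of 29 other genes of mitochondrial oxidation 3 were called higher and 2 lower, the largest change being that of the brain isoform Cpt1c (-1.27, SE 0.31, adjusted p = 0.0159 by edgeR), which was below 2 CPM in every liver. Of 21 receptor partners and coregulators 0 were called by edgeR, and 4 had an unadjusted p below 0.05 (35.3% of all tested genes had).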

How the data were processed

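Total RNA of bulk liver from 9 mice was sequenced by the authors as 150 bp paired-end reads. Per the labels, they trimmed reads with Trim Galore 0.6.7, mapped them to mm10 with HISAT2 2.2.1 and counted them with featureCounts 2.0.1. The annotation, strand setting and treatment of multi-mapped reads are not given in the sources used here, and reads of paralogs may be lost or split. The deposited values are raw counts per gene.

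Counts were filtered with filterByExpr (minimum count 10, minimum total 15), scaled by TMM and fitted in edgeR 4.0.16 (R 4.3.3, limma 3.58.1) with quasi-likelihood over all 9 libraries and 1 mean per group. Genes were called at a Benjamini-Hochberg adjusted p below 0.05 over all 14379 tested genes and a fold change above 1.5. The study used these limits with DESeq2, which is an alternative here. The fit was tested on simulated data. CPM used TMM-scaled totals, and SD was taken over the 3 mice of a group. SE was the absolute log2 fold change divided by the square root of the F value of its test. It came from the fit over all 9 libraries. Totals of 20656976 to 24322984 limit precision most where counts are lowest, as few as 67 for Acot3 and 77 for Pdk4. Acot3 also varied widely between mice, with 143, 67 and 937 counts in Flox. Alternatives were DESeq2 1.42.0, its size factors, no filter, only the libraries compared, replicate number as a block, no fold limit, glmTreat and leaving out each library.

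Genes were named with all values if called, if they were Ppara, Ppargc1a or Cpt1a, or if they had the highest level per kb or the largest change in F4MKO+FSTL1 against F4MKO within their role. In the wider lists, the called gene with the largest change was named, with Fgf21 and Angptl4, and some genes of these lists are not reported here. The 40 genes and all lists were chosen with earlier results of these data known. Coordinates, transcript lengths and promoters came from the GRCm38.p6 reference, the assembly behind mm10, and windows of 50 bases were compared across its transcripts. Replicates within groups differed by more than counting noise (chi-square per gene 23.5 to 54.9).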

Additional observations from a re-analysis of the deposited data

How the results depend on the processing

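The medians over the 40 genes kept their sign and stayed within 1 SD (0.142) of their value in every alternative. In F4MKO against Flox, where 0 genes were called, DESeq2 called 1 of the 40 (Cd36) and 1 of the wider list, and leaving low counts unfiltered called 2 (Cd36 and Acot2) and 1. Over all genes, the main fit called 29 higher and 10 lower of 14379. DESeq2 called 254 and 84 of 15162, and no filter 337 and 141 of 24008. Leaving out 1 library gave 0 to 77 higher and 0 to 23 lower over all genes, and 0 of the 40. In F4MKO+FSTL1 against F4MKO, where 3 were called higher, 4 lower and 15 of the wider list, no filter gave 5 higher, no fold limit gave 8 higher and 39 of the wider list, and glmTreat gave 0 higher, 2 lower and 3. Over all genes, the calls higher and lower were 461 and 1609 in the main fit and 561 and 1836 without the filter. They were 1112 and 1889 without the fold limit and 100 and 520 by glmTreat. Leaving out 1 library gave 1 to 5 higher, 2 to 5 lower and 8 to 22 of the wider list, with 290 to 591 higher and 959 to 1625 lower over all genes. In F4MKO+FSTL1 against Flox, DESeq2 gave 2 lower (Abcd2 and Pdk4) and 1 of the wider list, no filter gave 2 and 2, and leaving out 1 library gave 0 to 1 lower and 0 to 1 of the wider list. Over all genes, DESeq2 gave 50 higher and 234 lower, and no filter 81 and 298. Leaving out 1 library gave 0 to 25 higher and 0 to 76 lower over all genes. Dropping the fold limit and glmTreat change the call rule itself, and for the other settings the cause was not tested. The labels do not say whether mice of the same replicate number were paired. Same-numbered libraries had correlations of 0.0422 to 0.169 in F4MKO against Flox, 0.0919 to 0.304 in F4MKO+FSTL1 against F4MKO and -0.0985 to 0.206 in F4MKO+FSTL1 against Flox. Libraries of different numbers had -0.137 to 0.0499, -0.190 to 0.0834 and -0.149 to 0.166 in the same order. Every library correlated best with its own number only in F4MKO+FSTL1 against F4MKO. A factor shared by replicate number was not tested. The replicate block gave 3 higher and 5 lower (Cyp4a31 added) with 16 of the wider list in F4MKO+FSTL1 against F4MKO, and 1 of the wider list in F4MKO+FSTL1 against Flox. In F4MKO against Flox the block called 105 genes higher and 29 lower over all genes, and 0 of the 40. Abcd2 and Pdk4 were called in F4MKO+FSTL1 against F4MKO in all 16 alternatives. Among the results for single named genes, 12 changed sign, in 15 settings in all, each with 1 library left out and a main value that was not called. Leaving out 1 library gave ranges in F4MKO against Flox of -0.22 to 0.47 for Ppargc1a, -0.32 to 0.013 for Acaa1b, -0.59 to 0.079 for Cyp4a14 and -0.0085 to 0.12 for Cpt1a. The same range in F4MKO+FSTL1 against F4MKO was -1.21 to 0.020 for Cyp4a14. The ranges in F4MKO+FSTL1 against Flox were -0.22 to 0.032 for Cd36, -0.49 to 0.20 for Ppargc1a, -0.022 to 0.22 for Fabp1, -0.029 to 0.25 for Acaa1b, -0.30 to 0.050 for Acot2, -0.18 to 0.37 for Acot1 and -0.016 to 0.23 for Etfb.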
